A study of Brassica oleracea with 107 samples.

Results

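The endosperm hour series at 16 °C is a course of transcript levels at hours 1, 24 and 72 in endosperm with seed coat of Brassica oleracea, which includes the cabbages. It was sampled as 9 of the 107 RNA-sequencing libraries of the series, 3 at each hour. The members are the 11464 genes that reached 1 TPM (a read count corrected for gene length and scaled so that all genes sum to 1000000) in at least 1 of the 3 columns, out of 16338 genes listed for endosperm and 19732 in both tissues. The groups, in order of time, were endosperm at 16 °C at 1 hour, at 24 hours and at 72 hours. They were set beside the 26 °C groups of the same hours, endosperm at 16 °C on days 0, 1, 3, 7 and 22, and embryo at 16 °C. Per the labels' protocols, all plants grew at 21 °C up to bolting, then at 16 °C up to the bent-cotyledon stage of the embryo, and from there at 16 °C or 26 °C. The fraction labelled endosperm includes the seed coat, and was parted from the embryo under a microscope. The start point of the hours is not in the labels, nor is it said whether they share it with the days or whether the 3 libraries of a group came from separate plants. The title of the series names seed development and germination both.

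In a mature Brassica seed the endosperm is a thin living layer between the embryo and the seed coat, whose cells die as the seed matures. As background, maturing seeds gather storage proteins and protective proteins and keep many transcripts into the dry state. When a seed takes up water those stored transcripts are lost and transcripts for respiration, protein synthesis, reserve use and wall loosening are made. The endosperm is known as a site where abscisic acid, which holds germination back, and gibberellin, which promotes it, act on wall loosening before the root emerges.

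Each group is given by the authors as 1 value per gene, so a difference between hours has no replicate check, no SD and no test. Sequencing depth is unknown. By their names, the tables had already been narrowed by the authors to genes they called differentially expressed. A gene is counted as higher or lower when the difference of its log2(TPM + 1) values is 1 or more in size, that is 2-fold, a scale that understates the change of low genes. None of the 16338 identifiers matched the 53125 genes of the reference table, so no gene can be named by function, the marker genes of endosperm, seed coat and embryo could not be looked up, and no sequence can be shown. Listed values summed to 58.6%, 47.0% and 52.6% of 1000000 TPM at hours 1, 24 and 72.

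Most of the movement came in the earlier and shorter interval. At hour 24, 2876 genes were higher than at hour 1 and 1982 were lower, which is 25.1% and 17.3% of the genes compared. At hour 72, 1738 genes were higher than at hour 24 and 1001 were lower, which is 15.2% and 8.73%. The intervals are 23 and 48 hours long. The root-mean-square log2 difference over all genes was 1.34 for hour 24 against hour 1 and 0.97 for hour 72 against hour 24. In whole tissue, a loss of cells of a type and a loss of transcripts per cell cannot be told apart.

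Large differences were also more frequent in the step to hour 24. At hour 24, 808 genes were at least 4-fold higher and 640 at least 4-fold lower than at hour 1. At hour 72, 449 genes were at least 4-fold higher and 94 at least 4-fold lower than at hour 24. At 16-fold the numbers were 52 higher and 37 lower in the step to hour 24, and 39 higher and 3 lower in the step to hour 72. At 16 °C losses of 4-fold or more were thus few after hour 24, while gains of that size went on. On the log2(TPM + 1) scale a gene that is low at hour 24 cannot be 4-fold lower, while a gain has no such bound. The lower quartile of all genes at hour 24 was 2.16 TPM. At 26 °C the same step held 981 genes at least 4-fold higher and 1003 at least 4-fold lower. Near the 2-fold limit, 519 genes lay just inside it (1.0 to 1.1 in size) and 571 just outside (0.9 to 1.0) in the step to hour 24. In the step to hour 72 there were 454 and 548. At the abundance limit, 148 genes with a highest value of 1.0 to 1.1 TPM were kept and 159 of 0.9 to 1.0 TPM were left out.

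The balance between higher and lower genes depended on the scaling. The median gene was higher at hour 24 than at hour 1 by 0.23 on the log2 scale, lower at hour 72 than at hour 24 with a difference of -0.05, and higher at hour 72 than at hour 1 by 0.29. Of the genes that differed between hours 24 and 1, 59.2% were higher at hour 24, and after centring on the median gene 46.9% were, with 2223 higher and 2513 lower. At hour 72 against hour 1, 3829 genes were higher and 2613 lower, or 33.4% and 22.8% of all genes and 56.2% together. After centring there were 3064 higher and 3265 lower. In the step to hour 72 more genes were higher than lower under each scaling tried, with 63.5% higher as deposited, 68.2% after centring and 66.2% once the 10 most abundant genes were left out of the total.

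Genes were then put in classes by their 2 steps. A gene with a 2-fold difference in the step to hour 24 alone was called early, in the step to hour 72 alone late, in both steps in the same direction continuous, and in both steps in opposite directions reversing, as a peak or a trough at hour 24. These names stand for the size rule and not for a test. Early genes were the largest group, with 2176 early-rise genes (19.0% of all) and 1579 early-fall genes (13.8%). After centring on the median gene their balance turned, to 1656 early-rise and 2030 early-fall genes. Late genes numbered 1142 for rise and 494 for fall. Continuous genes were fewer, at 442 and 249, and reversing genes fewer still, at 258 peaks and 154 troughs. A further 586 genes were 2-fold higher and 577 lower at hour 72 than at hour 1 without reaching that size in either step, and are called gradual. The remaining 3807 genes (33.2%) entered no class. The hour 24 column is shared by both steps, as the later column of the step to hour 24 and the earlier column of the step to hour 72, so the classes rest on it doubly.

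**Figure D1:**
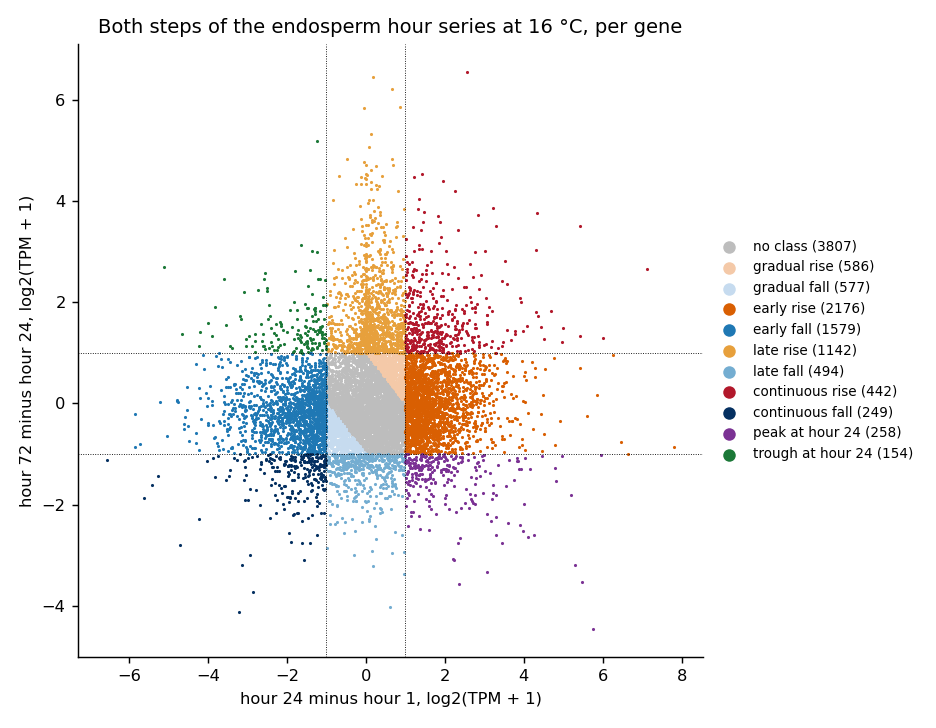
Each point is a gene, with its hour 24 minus hour 1 difference on the x axis and its hour 72 minus hour 24 difference on the y axis, both on the log2(TPM + 1) scale at 16 °C; dotted lines mark the 2-fold limits and colours the classes, with gene counts in the legend. The cloud is wider along the x axis than along the y axis, with 2176 early-rise and 1579 early-fall genes on its sides, and its upper arm of 1142 late-rise genes is longer than its lower arm of 494 late-fall genes.

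The classes started from different levels. Continuous-fall genes had the highest median at hour 1, at 70.2 TPM, and were at 18.3 TPM at hour 24 and 5.64 TPM at hour 72. Early-fall genes were at 24.4, 5.55 and 4.88 TPM at the 3 hours, and late-fall genes at 23.6, 23.7 and 8.71 TPM. The rising classes began low. Continuous-rise genes had medians of 1.45, 8.67 and 33.8 TPM at hours 1, 24 and 72, and early-rise genes 4.39, 17.7 and 17.1 TPM. Late-rise genes began lowest by median, with 0.40, 0.73 and 6.02 TPM. Their upper quartile at hour 1 was 3.11 TPM, and the class also held abundant genes such as Bo2g086460, at 4618, 2552 and 8013 TPM. All of these medians follow from the values that set the classes and are given as a description.

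**Figure D2:**
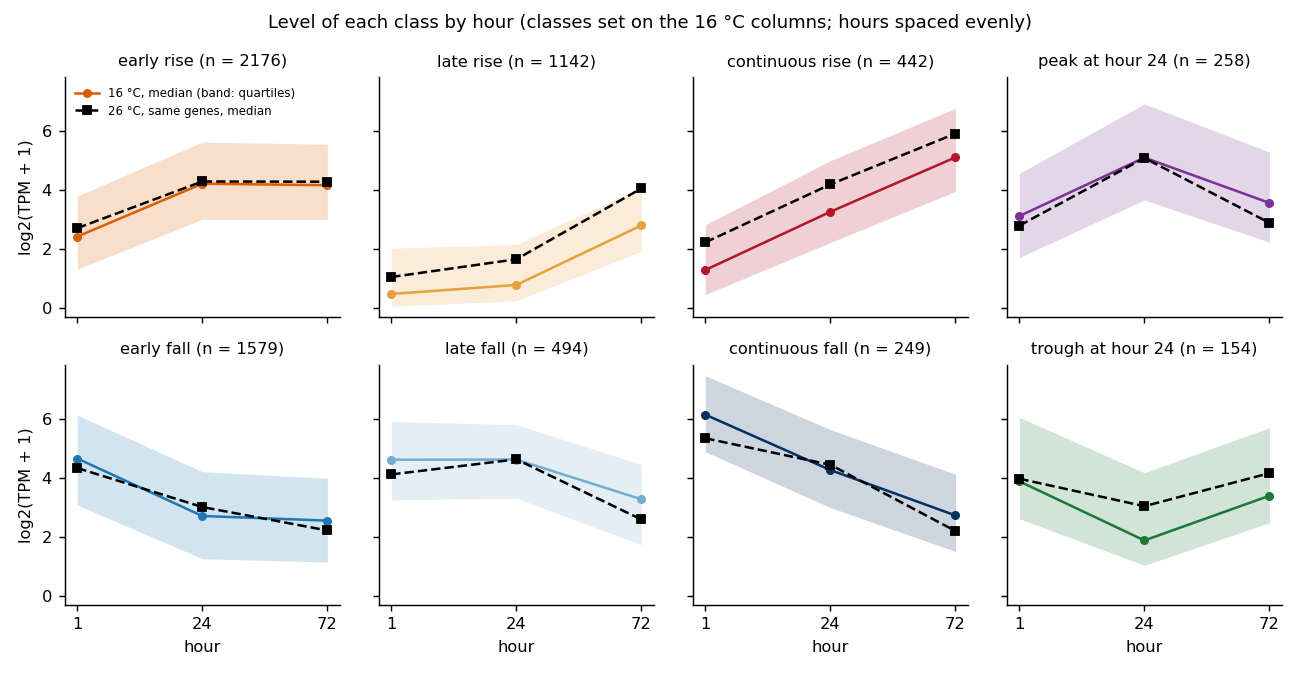
Medians of log2(TPM + 1) at hours 1, 24 and 72 for the genes of each class set at 16 °C (solid coloured lines; bands span the quartiles over genes), with the same genes at 26 °C (dashed black lines). At hour 72 the late-rise median is 6.02 TPM at 16 °C, while the same genes at 26 °C have 15.8 TPM; the shapes at 16 °C are set by the class rule and those at 26 °C are not.

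At 16 °C, losses were nearer completion at hour 24 than gains; the same genes at 26 °C did not show this order, with a median of 53.8% covered for gains and 50.7% for losses. Of the 1037 genes at least 4-fold lower at hour 72 than at hour 1, the median gene had covered 75.1% of its whole log2 difference by hour 24 (quartiles 57.7% and 90.4%), and 862 genes (83.1%) had covered at least 50%. Of the 1617 genes higher by 4-fold or more at hour 72, the median gene had covered 59.3% (quartiles 31.8% and 80.7%), and 961 (59.4%) had covered at least 50%. The log2(TPM + 1) scale understates change at low levels, where falling genes end and rising genes start. The shares covered were not recomputed with another pseudocount.

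Few genes went fully on or off. At hour 72, 563 genes stood at 5 TPM or more that had been under 1 TPM at hour 1. Of these, 53 had been listed at 0 at hour 1. In 177 genes the level was under 1 TPM at hour 1 and already 5 TPM or more at hour 24, and in 179 it was still under 1 TPM at hour 24 and at 5 TPM or more at hour 72. In the other direction, 181 genes at 5 TPM or more at hour 1 were under 1 TPM at hour 72, and 2 of them were listed at 0. By hour 24, 95 genes had made that change.

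Among the listed genes, the most abundant transcripts held their largest share at hour 1. The 10 most abundant listed genes, ranked anew at each hour, held 11.3% of all TPM at hour 1, 3.16% at hour 24 and 5.51% at hour 72. The number of genes that made up 50% of the listed TPM was 185, 455 and 312 at the 3 hours, so the listed transcripts were spread most evenly at hour 24. The listed genes held only part of all TPM, least at hour 24, at 47.0%. Unlisted genes may be more abundant, so the spread over all transcripts is not known. Of the 10 top genes at hour 1, 6 were early-fall genes, 2 were troughs, 1 was a late-rise gene and 1 was in no class. At hour 72 the top 10 held 3 late-rise and 2 continuous-rise genes. Of the 100 top genes, 52 were shared between hours 1 and 24, 65 between hours 24 and 72, and 43 among all 3 hours.

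By class, early-fall genes held 22.5% of all TPM at hour 1, 5.29% at hour 24 and 5.47% at hour 72. Early-rise genes held 3.15%, 11.6% and 12.1%. Continuous-rise genes held 0.52%, 2.02% and 5.98%, and late-rise genes 2.36%, 2.10% and 6.40%. Genes in no class held 13.8%, 14.1% and 13.2%, a steadiness that the class rule itself brings. All of these shares follow from the values that set the classes and are given as a description. Because TPM has a fixed total, the loss of a few abundant transcripts can lift the TPM of the others without more copies of them being present.

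**Figure D3:**
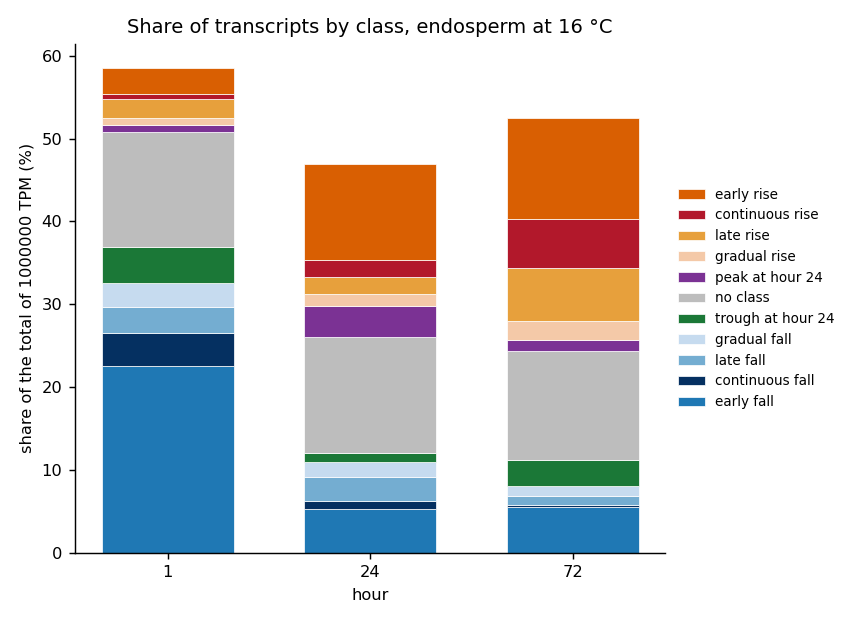
Stacked bars give the share of the total of 1000000 TPM, in percent, held by the genes of each class at hours 1, 24 and 72 at 16 °C; bars end below 100% because the table lists only part of the genes. The early-fall block shrinks to 5.29% at hour 24, against 22.5% at hour 1, and the early-rise block is 11.6% at hour 24, against 3.15% at hour 1.

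The identifiers with the largest differences show the size of these changes; each value below is the deposited TPM of a group. Their order holds for log2(TPM + 1) and turns in places with a pseudocount of 0.1. The gene with the largest gain in the step to hour 24 was Bo01011s010, at 5.86, 1548 and 857 TPM at hours 1, 24 and 72. It is an early-rise gene, and on days 0, 1 and 3 of the same tissue its highest level was 0.053 TPM. Next came Bo6g109040, at 0.31, 182 and 1165 TPM, a log2 difference of 7.13 in the step to hour 24 and 2.67 in the step to hour 72. With a pseudocount of 0.1 Bo6g109040 led that step, at 8.81 against 8.02 for Bo01011s010. On days 0, 1 and 3 Bo6g109040 stood at 69.7, 66.3 and 59.3 TPM, above its level at hour 1 and below that at hours 24 and 72.

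The largest losses in the step to hour 24 were those of Bo3g054410, at 567, 5.01 and 1.78 TPM, and Bo3g107140, at 84.2, 0.47 and 0.28 TPM. Their log2 differences in that step were -6.56 and -5.86, and with a pseudocount of 0.1 they were -6.79 and -7.21. Both were at 4.06 to 6.40 TPM on days 0 to 3, levels between their hour 1 and hour 72 values. Bo3g054410 also had the largest whole-course loss, with a log2 difference of -7.68 between hours 72 and 1, followed by Bo4g151130, at 324, 11.4 and 0.76 TPM, with -7.53. With a pseudocount of 0.1 Bo4g151130 led, at -8.55 against -8.24 for Bo3g054410.

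In the step to hour 72 the largest gains were those of Bo7g114400, at 0.54, 8.07 and 856 TPM, and Bo3g010180, listed at 0 at hour 1 and at 0.13 and 98.9 TPM at hours 24 and 72. Their log2 differences in that step were 6.56 and 6.46, and with a pseudocount of 0.1 they were 6.71 and 8.74. Bo7g114400 met the continuous rule, though nearly all of its gain in TPM came after hour 24. Bo3g042740 had the largest loss in that step, at 13.3, 777 and 34.3 TPM, and it also led the peaks by the rule used to name genes. On days 0, 1 and 3 it did not pass 0.02 TPM. Bo1g050780 came next, at 926, 98.2 and 4.71 TPM, with log2 differences of -3.22 and -4.12 in its 2 steps.

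Among continuous genes, ranked by the smaller of their 2 steps, Bo1g123690 was at 0.11, 21.5 and 306 TPM and Bo9g177230 at 1.01, 85.0 and 983 TPM. Bo9g177230 was listed at 0 on days 0, 1 and 3. Bo3g007430, at 583, 65.3 and 6.20 TPM, had log2 differences of -3.14 and -3.20 in its 2 steps. Among reversing genes the peak of Bo4g105110 stood at 51.2 TPM at hour 24, against 0.17 TPM at hour 1 and 3.52 TPM at hour 72. The troughs were Bo4g013110, at 58.5, 0.72 and 10.2 TPM, and Bo8g097970, at 66.5, 10.6 and 67.8 TPM, which at hour 72 stood near its level of hour 1.

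The most abundant of the listed genes changed at each hour. At hour 1 it was Bo2g167630, at 31935 TPM, which was at 1946 TPM at hour 24 and 1892 TPM at hour 72. At hour 24 it was Bo4g190800, at 4053 TPM, against 7859 TPM at hour 1 and 5421 TPM at hour 72, so it led at the hour of its lowest level. At hour 72 it was Bo4g163690, at 9711 TPM, against 7433 TPM at hour 1 and 3111 TPM at hour 24. On days 0 to 3 Bo2g167630 was at 14.2 to 40.3 TPM and Bo4g190800 at 0.07 TPM or less. Of the 18 genes in the top 10 of any hour, 10 were under 10 TPM on each of days 0, 1 and 3.

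**Figure D4:**
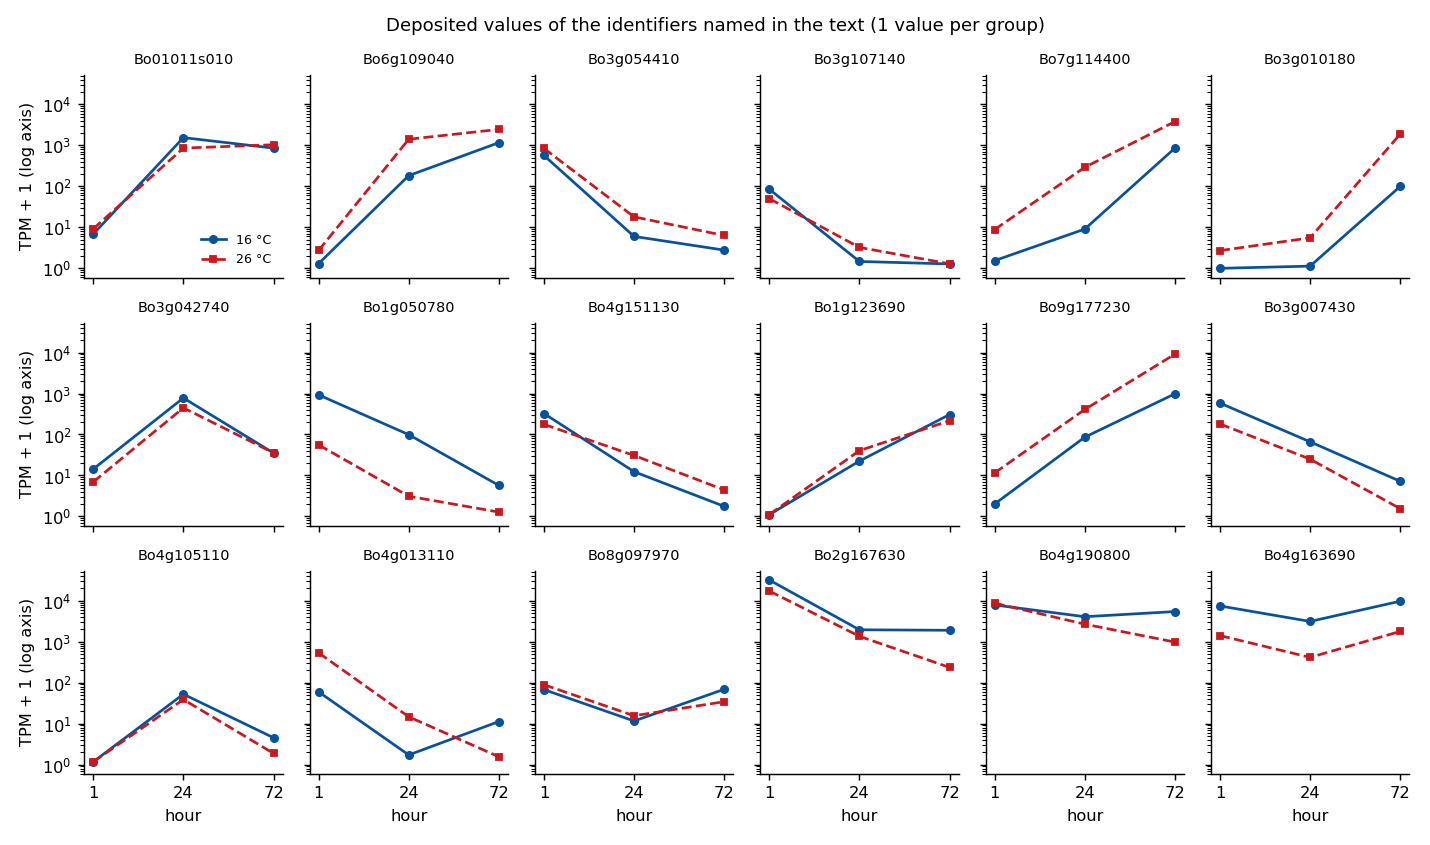
Deposited values at hours 1, 24 and 72 of the 18 identifiers picked by the naming rule, which does not include Bo2g086460. They are given as TPM + 1 on a log axis, at 16 °C (blue circles) and at 26 °C (red squares). Each point is the authors' value for a group, with no error; Bo4g013110 turns up after hour 24 at 16 °C, to 10.2 TPM at hour 72, and goes on down at 26 °C, to 0.55 TPM.

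The 26 °C columns come from other libraries and were not used to set the classes. Most steps taken at 16 °C were also seen there, but the later interval was as busy as the earlier one. In the step to hour 24, 42.4% of genes differed in either direction at 16 °C and 47.1% at 26 °C. In the step to hour 72 the shares were 23.9% at 16 °C and 46.8% at 26 °C. Over the whole course at 26 °C, 34.8% of genes were higher and 27% lower, 61.7% together. Of the 2876 genes higher at hour 24 at 16 °C, 1942 (67.5%) were higher at 26 °C and 10 were lower, where 29.6% of all genes were higher and 17.5% lower. Of the 1982 genes lower at hour 24 at 16 °C, 1155 (58.3%) were lower at 26 °C and 81 higher. In the step to hour 72, 1338 of the 1738 higher genes (77.0%) were higher at 26 °C and 50 lower, where 21.3% of all genes were higher and 25.6% lower. Of the 1001 lower genes, 815 (81.4%) were lower at 26 °C and 4 higher.

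The class, which requires both steps to match, was also compared. At 26 °C, 647 of the 1142 late-rise genes (56.7%) were late-rise, against 12.8% of all genes, and 235 of the 442 continuous-rise genes (53.2%) were continuous-rise, against 6.09%. Among early-fall genes, 553 (35.0%) were early-fall at 26 °C, against 9.52% of all genes, and another 336 were continuous-fall, against 5.6% of all genes. The 26 °C shares covered by hour 24, given above, are over the 1507 of 1617 genes with a 4-fold gain at 16 °C, and the 945 of 1037 with a 4-fold loss, that differed 2-fold over the whole course at 26 °C. These genes were chosen on the 16 °C values, and the difference between temperatures was not tested.

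Reversing genes were compared in the same way. Of the 258 genes that peaked at hour 24 at 16 °C, 164 (63.6%) met the same rule at 26 °C, against 8.33% of all genes. Bo3g042740 was at 5.95, 446 and 34.6 TPM there, close to its 16 °C course. Bo4g105110 was at 0.17, 37.7 and 0.88 TPM at 26 °C. Of the 154 troughs, 42 (27.3%) were troughs at 26 °C, against 2.35% of all genes. Another 37 were late-rise there, against 12.8% of all genes, and 22 were continuous-fall, against 5.6%.

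Most of the identifiers named above kept their course at 26 °C, several of them at higher levels. Bo9g177230 was at 10.6, 407 and 9133 TPM at hours 1, 24 and 72 at 26 °C, above its 16 °C level at each hour. Bo7g114400 was at 7.84, 291 and 3813 TPM and Bo3g010180 at 1.71, 4.55 and 1886 TPM. Both also stood higher than at 16 °C at all 3 hours. Bo1g050780 was lower at 26 °C at each hour, at 54.7, 2.11 and 0.28 TPM, and so was Bo3g007430, at 180, 24.0 and 0.55 TPM. The leading gene of hour 1 at 16 °C, Bo2g167630, went on down at 26 °C, to 234 TPM at hour 72, against 1348 TPM at hour 24.

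On days 0 to 3 at 16 °C, measured with the same library kit, the medians of the falling classes and of the early-rise and continuous-rise classes lay on opposite sides of that of all genes. The median over genes was 3.38 TPM on day 0 for continuous-fall, 4.04 TPM for early-fall and 4.95 TPM for late-fall genes, against 7.58 TPM for all genes. It was 25.4 TPM for continuous-rise and 12.4 TPM for early-rise genes, and 6.85 TPM for late-rise genes. Values of days 1 and 3 were close to these, at 3.07 and 2.96 TPM for continuous-fall and 25.3 and 21.7 TPM for continuous-rise genes.

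Genes that stayed under 1 TPM on all of days 0, 1 and 3 made up 28.5% of the continuous-fall class, 28.1% of early-fall and 31.0% of peaks, against 18.2% of all 11464 genes. The share was 9.83% of early-rise and 10.4% of continuous-rise genes. Among late-rise genes it was 251 of 1142 (21.98%). Of the 563 genes that were under 1 TPM at hour 1 and at 5 TPM or more at hour 72, 112 were under 1 TPM on all of days 0, 1 and 3. Of the 181 genes at 5 TPM or more at hour 1 and under 1 TPM at hour 72, 95 were.

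The hour columns came closer to the days 0 to 3 profile with time, as they did to each embryo profile compared. Across the 11464 genes, Spearman's rho with day 3 was 0.31 at hour 1, 0.44 at hour 24 and 0.52 at hour 72. Pearson's r of log2 values took the same course, with 0.31, 0.44 and 0.52. The distance to day 3 remained large at hour 72, with a root-mean-square log2 difference of 2.12, against 2.33 at hour 24 and 2.62 at hour 1. In comparison, the distance between hours 72 and 1 was 1.75. At hour 72, 35.3% of genes were 2-fold above day 3 and 20.2% below. Above day 3 were 36.5% at hour 24 and 35.5% at hour 1, and below it 24.4% at hour 24 and 31.9% at hour 1. These correlations are across genes of columns from a single table, genes are not independent replicates, and days and hours may count from different events. Over the 7428 genes also listed for embryo, rho rose with the hour too. With embryo of day 0 at 16 °C it was 0.07, 0.20 and 0.40 at the 3 hours. With embryo of day 22 it was 0.50, 0.56 and 0.61. The rise was thus not particular to early endosperm.

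The same classes were followed in the embryo, a different tissue in other libraries, where 7428 of the genes are listed. Between days 0 and 22 at 16 °C, 14.1% of these genes were higher and 41.4% lower on day 22. Among late-rise genes 634 of 866 (73.2%) were lower on day 22 and 54 (6.24%) higher, and among continuous-rise genes 226 of 318 (71.1%) were lower and 20 (6.29%) higher. Early-rise genes stood between, with 650 of 1222 (53.2%) lower. The genes that gained in endosperm over the hours were thus often genes that stood lower in later embryo. Late-rise, continuous-rise and early-rise genes also started higher in embryo. Their day 0 medians were 14.6, 29.1 and 10.8 TPM, against 6.77 TPM for all genes. On the log2(TPM + 1) scale they thus had more room to be 2-fold lower.

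In the continuous-fall and late-fall classes more genes were higher than lower in embryo, with median log2 differences of 0.65 and 0.32. Their medians in embryo on day 0 were 1.44 and 2.06 TPM, against 14.6 TPM for late-rise and 29.1 TPM for continuous-rise genes. On the log2(TPM + 1) scale they thus had less room to be 2-fold lower. On day 22, 78 of 190 continuous-fall genes (41.1%) were higher than on day 0 and 14 (7.37%) lower. Of 326 late-fall genes, 93 (28.5%) were higher and 42 (12.9%) lower. Early-fall genes were nearly balanced, with 245 of 1167 (21.0%) higher and 251 (21.5%) lower. Peaks were close to late-fall genes in these shares, with 57 of 180 (31.7%) higher and 25 (13.9%) lower.

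**Figure D5:**
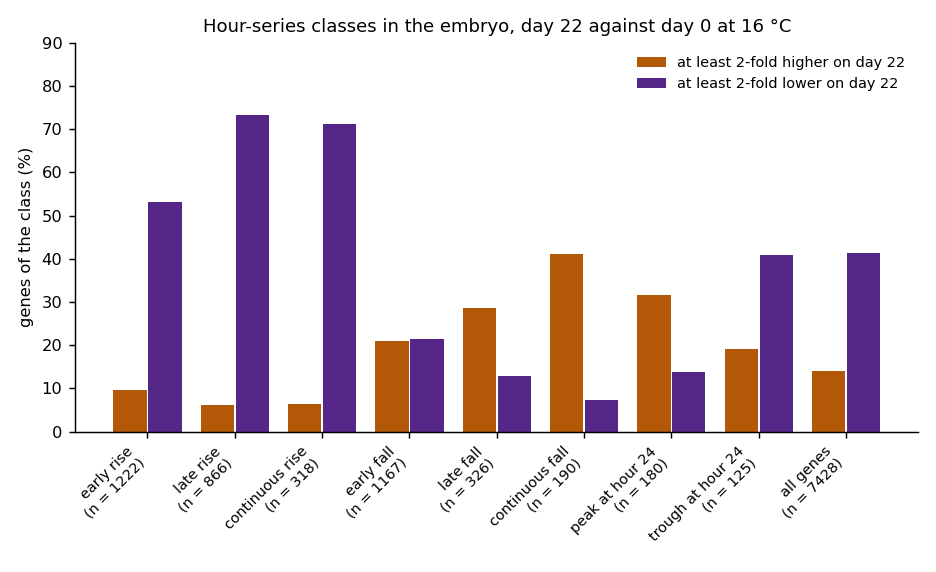
Bars give, for each class of the endosperm hour series and for all genes, the percent of its genes listed for embryo (n under each name) that were at least 2-fold higher or lower in embryo on day 22 than on day 0 at 16 °C. Lower genes reach 73.2% in late rise and 71.1% in continuous rise, against 41.4% of all genes, and higher genes reach 41.1% in continuous fall, against 14.1% of all genes.

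In endosperm itself, days 7 and 22 were made with another library kit than the hours, so only their difference within that kit is given. On day 22 against day 7, 6.7% of all genes were higher and 9.32% lower. Of the continuous-fall genes 41 of 249 (16.5%) were higher and 9 (3.61%) lower, and of the late-rise genes 85 of 1142 (7.44%) were higher and 211 (18.5%) lower.

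Genes preferential to embryo were found in every class, and were over-represented among late-rise, continuous-rise and trough genes. On each of days 0, 1 and 3, 279 genes were at least 8-fold higher in embryo than in endosperm. In the hour series their number at 1 TPM or more was 98 at hour 1, 114 at hour 24 and 179 at hour 72, and their number at 0 was 73, 58 and 6. Their summed level was 33383, 22364 and 33886 TPM, against 4029 to 8804 TPM in endosperm on days 0 to 3 and 159174 to 274116 TPM in embryo on the same days. Of the 185 that were members, 70 (37.8%) were late-rise genes and 23 (12.4%) continuous-rise, against 9.96% and 3.86% of all members. Another 11 (5.95%) were troughs, against 1.34% of all members, and 3 (1.62%) were late-fall genes, against 4.31%. Early-fall genes numbered 17 (9.19%, against 13.8%) and early-rise genes 12 (6.49%, against 19.0%). In no class were 34 (18.4%), against 33.2% of all members. Membership needed 1 TPM at only 1 hour, and more of the 279 genes reached it at hour 72 than at hour 1. The filter itself can thus raise the share of rising classes among the 185. Without the embryo-preferential genes the late-rise class held 1072 genes and the continuous-rise class 419. At 26 °C, 130, 142 and 217 of the 279 genes reached 1 TPM at hours 1, 24 and 72, and their sum was 32731, 13917 and 12289 TPM.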

How the data were processed

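RNA was sequenced from dissected embryo and from endosperm with seed coat. Per the labels' protocols, endosperm of days 7, 15, 18 and 22 was prepared with the Ovation RNA-seq system and all other libraries, the hours included, with a standard Illumina protocol. Reads were handled with cutadapt 1.9.1, STAR 2.5 and featureCounts, per the submitters' processing notes. Not given in the sources used here are the build, the annotation, the strand setting and how libraries were combined into a group value. Used here are the authors' deposited TPM, 1 column per group.

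From these values, log2(TPM + 1) differences between hours were computed for genes at 1 TPM or more in at least 1 of 3 columns, and genes were called at 2-fold. A limma fit had been planned; without values per library it was not possible, and there are no p-values. Depth is unknown and no interval or detection limit is given. Identifiers named are at most 2 in each direction per step, whole course and class, by size of difference (continuous and reversing genes by their smaller step), with a minimum of 5 TPM in the higher column, plus the most abundant gene of each hour. Bo2g086460 was named outside this rule, as an example of an abundant late-rise gene. The classification was tested on simulated data. Members, classes and lists were chosen with earlier results of these data known. Alternatives were a pseudocount of 0.1, no filter, a filter of 5 TPM, median centring, rescaling without the 10 most abundant genes, and a 4-fold limit. Work was done in Python 3.11.15 with pandas 2.3.3 and numpy 2.4.6.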

Additional observations from a re-analysis of the deposited data

Results flagged for a closer look

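Bo4g013110 took opposite directions at the 2 temperatures in the step to hour 72. Its log2 difference of hour 72 minus hour 24 was 2.71 at 16 °C and -3.24 at 26 °C, with 10.2 TPM at hour 72 and 0.72 TPM at hour 24 at 16 °C, and 0.55 and 13.7 TPM at 26 °C. With 1 value per group, this difference between temperatures was not tested. Among all genes, 50 were 2-fold higher in that step at 16 °C and 2-fold lower at 26 °C, and 4 were the reverse.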

How the results depend on the processing

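The counts of genes stayed within 1.5 times of those reported under rescaling and, chosen after seeing the data, removal of embryo-preferential genes. Dropping the filter gave identical counts by construction, since a gene under 1 TPM in each column cannot differ by 1 on the log2(TPM + 1) scale. A pseudocount of 0.1, which weights low genes more, gave 1541 genes lower in the step to hour 72, 947 continuous-rise, 491 continuous-fall, 389 peak, 348 trough and 354 gradual-rise genes. A filter of 5 TPM gave 638 late-rise and 314 gradual-rise genes, since fewer genes were compared, and median centring gave 387 gradual-rise genes. A 4-fold limit gave 808 higher and 640 lower genes in the step to hour 24, 449 and 94 in the step to hour 72, and 1617 and 1037 over the whole course. Its classes held 752 early-rise, 623 early-fall, 408 late-rise, 62 late-fall, 33 continuous-rise, 9 continuous-fall, 23 peak and 8 trough genes. Over the listed TPM alone the top 10 genes of each hour held 19.3%, 6.72% and 10.5% at hours 1, 24 and 72. With a 4-fold limit for embryo preference the sums were 72722, 47478 and 62501 TPM. Except where the text or a value above says so, the cause of a shift was not tested. None of 78 values of named identifiers under a pseudocount of 0.1, centring or rescaling changed sign, and 9 moved by over 1 log2 unit. No paired analysis was possible because each group has 1 deposited column, and for the same reason no replicate could be left out.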

Other observations

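Identifiers with neighbouring numbers were compared; the sources used here do not say that the numbers follow gene order. Among 2954 pairs of members whose numbers differ by 10, 26.8% of the neighbours of a gene lower at hour 24 than at hour 1 were lower too, against 17.3% of all members. For genes higher at hour 24 the share was 29.3% against 25.1%. In the step to hour 72 it was 21.7% against 15.2% for higher and 11.7% against 8.73% for lower genes. Near-identical copies were not looked for. Between the 9 number series Bo1 to Bo9, the share of members higher at hour 24 ran from 23.4% to 27.3%, and the share lower from 16.2% to 18.3%.

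Late embryo was nearer to the hour series than early embryo. Spearman's rho across the 7428 genes listed for both tissues was 0.50 at hour 1, 0.56 at hour 24 and 0.61 at hour 72 with embryo of day 22 at 16 °C, and 0.07, 0.20 and 0.40 with embryo of day 0. These are descriptions across genes, which are not independent replicates.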
